A study of Homo sapiens with 6 samples.

Results

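Succinate dehydrogenase and other enzymes of the tricarboxylic acid (TCA) cycle were followed in LNCaP, an established cell line from a human prostate cancer that responds to androgen. The list named 9 genes, and 7 of them, SDHA, SDHC, SDHD, MDH1, MDH2, IDH3A and CS, were each paired with at least 1 probe set of their own in the platform annotation, among 19775 such genes in all. The other 2 listed genes were not analysed here. The 7 genes had 17 probe sets among 54613 tested, from 1 each for SDHA, MDH1 and CS to 7 for SDHC. The genes were chosen with the difference between the groups already known, so the values of these 17 probe sets are a description and carry no test.

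In one group the non-coding RNA PCARNEQ was targeted with small interfering RNA (siRNA), which directs cleavage of matching transcripts. The control siRNA targeted EGFP, a jellyfish-derived fluorescent protein with no human counterpart, and the number of siRNA sequences is not given in the sources used here. Each group was measured on 3 single-colour Affymetrix arrays, called siPCARNEQ arrays 1 to 3 and siEGFP arrays 1 to 3. All cells were of this 1 line, and the labels name no other treatment, time or dose. They do not name separate cultures either, so a p-value here reflects array-to-array spread alone, and that spread may be technical. The level of PCARNEQ itself was not analysed here, and the comparison asked which transcripts differ when it is targeted.

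The TCA cycle oxidizes acetyl groups to carbon dioxide in the mitochondrial matrix. Citrate synthase (CS) starts it, isocitrate dehydrogenase 3, whose catalytic subunit is IDH3A, makes alpha-ketoglutarate, and malate dehydrogenase (MDH2 in mitochondria, MDH1 in the cytosol) closes it by making oxaloacetate. Succinate dehydrogenase is both a TCA enzyme and complex II of the respiratory chain: SDHA carries the flavin that oxidizes succinate, and SDHC and SDHD are the membrane anchors where ubiquinone is reduced. Normal prostate epithelium is known for making and secreting citrate instead of oxidizing it fully, and succinate dehydrogenase genes are known as tumour suppressors in other tissues.

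Promoter sequence is shown for 4 of the genes, SDHD because its level differed most between the groups, SDHA as another subunit of the same complex, and MDH2 and CS because they shared a motif with SDHD. The sequences are from RefSeq on GRCh38.p14, read 5′ to 3′ along the gene, and each covers the 120 bases before the start site. Capitals mark CCGGAA, the ETS core that GABP binds, and GCATGCG, a core of the NRF1 motif, on either strand.
SDHD, chr11:112086753-112086872, + strand: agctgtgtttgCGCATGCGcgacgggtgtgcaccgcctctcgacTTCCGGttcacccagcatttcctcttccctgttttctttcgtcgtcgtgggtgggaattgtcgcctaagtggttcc
SDHA, chr5:218200-218319, + strand: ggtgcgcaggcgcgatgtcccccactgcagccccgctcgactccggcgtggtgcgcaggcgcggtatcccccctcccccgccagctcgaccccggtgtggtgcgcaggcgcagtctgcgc
MDH2, chr7:76047986-76048105, + strand: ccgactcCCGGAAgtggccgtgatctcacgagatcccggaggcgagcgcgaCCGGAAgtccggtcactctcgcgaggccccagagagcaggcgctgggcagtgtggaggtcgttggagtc
CS, chr12:56300331-56300450, - strand: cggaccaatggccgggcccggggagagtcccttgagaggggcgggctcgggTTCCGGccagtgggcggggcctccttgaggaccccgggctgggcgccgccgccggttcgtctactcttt

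Of the 7 measured genes, 6 had promoter entries, 7 in all since MDH1 had more than 1. The ETS core was found in SDHD, MDH2 and CS (3 of 6 genes, and 3 of the 7 entries). It was in 9.77% of all 35116 RefSeq promoter windows of this length, a share counted by entry and not by gene. The NRF1 core was found only in SDHD among the 6, and in 2.3% of all windows. Its 2 matches in SDHD are the opposite strands of a single palindromic stretch that ends 102 bases before the start. The half-site AAGGTCA of estrogen-related receptors, searched on both strands as well, was in none of the 6 and in 1.58% of all windows. These matches describe letters in a window and do not show binding.

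Array 1 stood apart from arrays 2 and 3 in both groups. Arrays 2 and 3 differed from each other with an SD over probe sets of 0.136 log2 units (siPCARNEQ) and 0.129 (siEGFP). Array 1 differed from them with an SD of 0.371 to 0.373 and of 0.232 to 0.239. For ACTB, the 3' control probe set exceeded the 5' one by 1.84 log2 units on siPCARNEQ array 1 and by 0.63 to 0.78 on the other 5 arrays. A larger excess is read as a sign of less intact RNA. For GAPDH this excess was 0.26 on that array and -0.14 to -0.03 on the others. Of 17 member probe sets, 9 had their lowest value of all 6 arrays on siPCARNEQ array 1. The part of RNA quality in the member values was not tested. Most member values below are also given by array, but those of most other genes are not. The luminal prostate markers KLK3, KLK2, TMPRSS2, HOXB13 and FOLH1 lay at 8.40 to 14.12 log2 units, above the array median of 7.03, and 3 of these 5 rose. Immune markers (PTPRC, CD3E and CD14) lay at 5.03 to 7.54 and endothelial markers (PECAM1, VWF and CDH5) at 4.62 to 7.91, and none of these passed with limma (adjusted p = 0.539 to 0.933). Of 4 fibroblast genes, lying at 5.51 to 11.03, COL1A1 and LUM rose by 1.11 and by 1.39 (limma adjusted p = 0.000544 and 0.000949), while COL1A2 and DCN differed by -0.14 and 0.11. Of the basal genes, KRT14 rose by 1.02 at a level below the array median (limma adjusted p = 0.000307), and KRT5 differed by -0.16. The part of these markers in the member values was not tested.

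SDHD was the member that differed most, and the only one of the 17 probe sets to differ by 1 log2 unit or more. Its probe set 202026_at lay at 12.56, 12.63 and 12.63 log2 intensity on siEGFP arrays 1 to 3, and at 10.26, 10.99 and 10.92 on siPCARNEQ arrays 1 to 3. All 3 siPCARNEQ arrays were below all 3 siEGFP arrays, with siPCARNEQ array 1 the lowest. The means were 12.61 ± 0.04 in siEGFP and 10.73 ± 0.40 in siPCARNEQ (SD, n = 3), a difference of -1.88 (SE 0.19). On the linear scale the siPCARNEQ level was 27.2% of the control level, or 3.68 times lower. The difference was -2.30 between the arrays numbered 1 and -1.67 between the means of arrays 2 and 3, and it ran from -2.01 to -1.65 when any 1 array was left out. Among all genes, 68 had a larger fall. In bulk RNA, fewer cells with this transcript and less of it per cell cannot be told apart.

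The second SDHD probe set, 215652_at, did not show this. It lay at 4.28, 4.45 and 4.19 in siEGFP and 4.42, 4.29 and 4.40 in siPCARNEQ, with overlapping groups and a difference of 0.07 (SE 0.09). Both groups were far below the array median, where detection was not established, so the SDHD value rests on 1 probe set.

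SDHA, the flavoprotein, hardly differed. Its probe set 201093_x_at lay at 11.66, 11.59 and 11.57 in siEGFP and 11.51, 11.52 and 11.55 in siPCARNEQ. The groups did not overlap, but the difference was only -0.08 (SE 0.07), or 94.6% of control. The suffix _x_at marks probes that can match several transcripts, and SDHA has pseudogenes. A further probe set paired with 4 genes, SDHA and pseudogenes of it, cannot be assigned to SDHA and differed by 0.08 with overlapping groups.

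**Figure D1:**
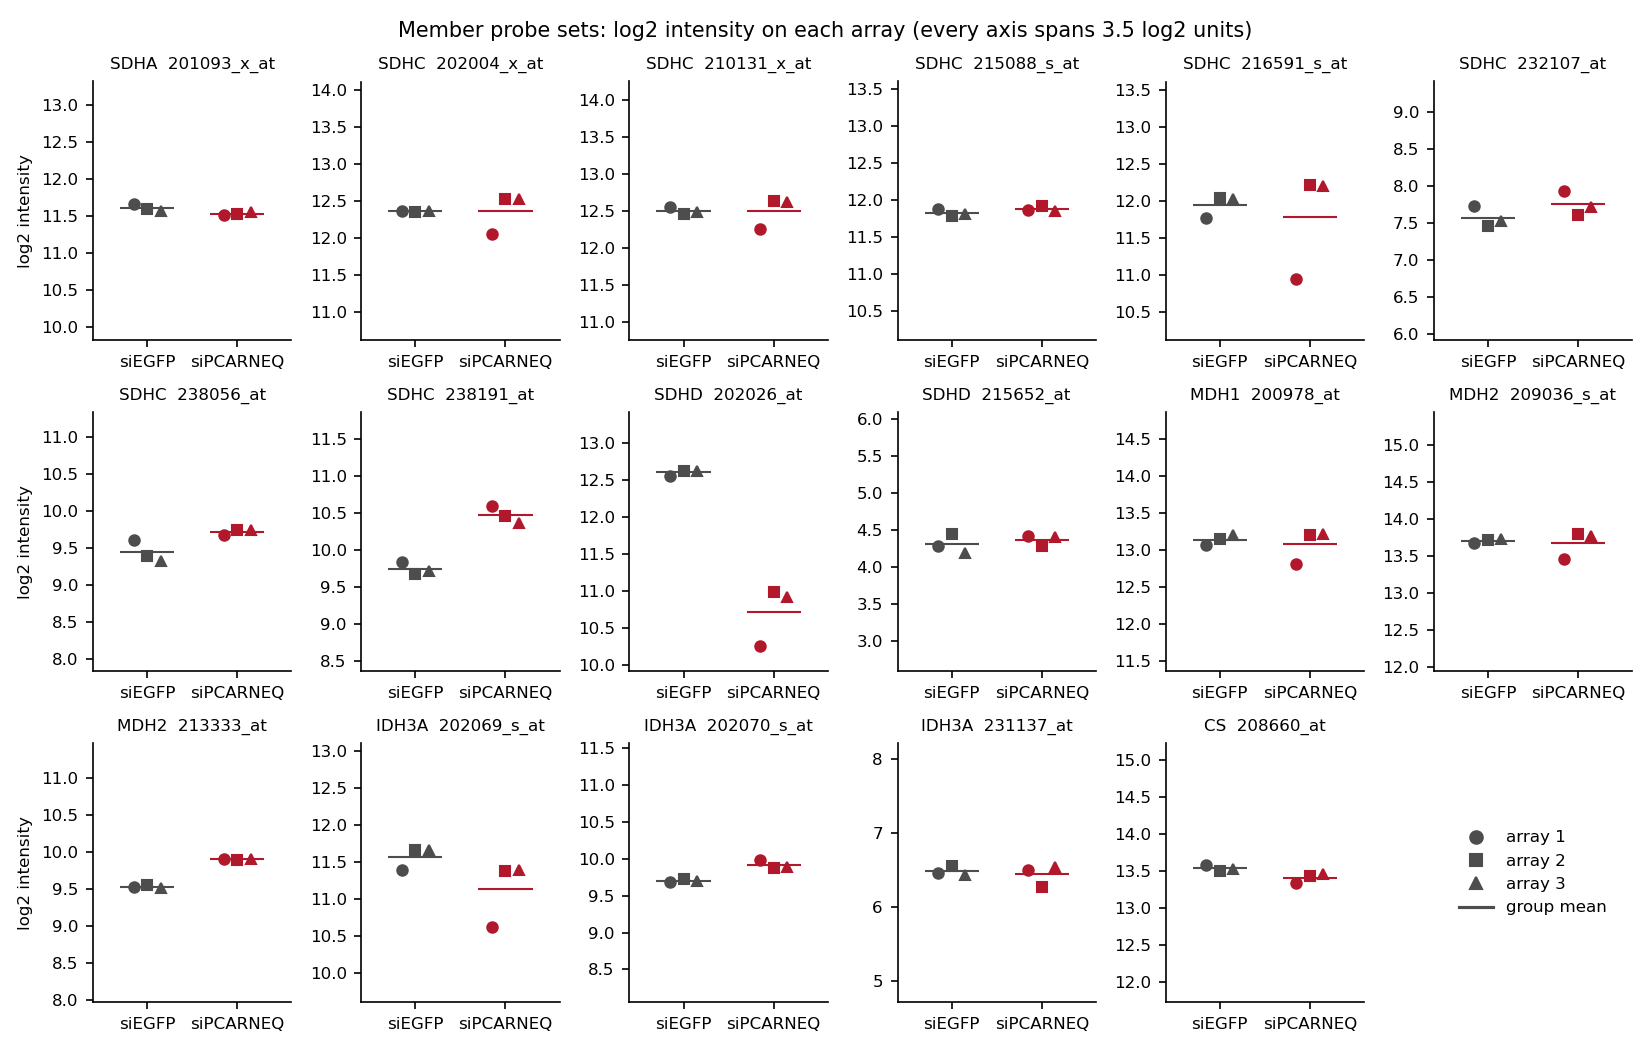
Each panel plots log2 intensity (vertical axis) of 1 member probe set on the 3 siEGFP and 3 siPCARNEQ arrays, with the symbol giving the array number and the line the group mean; all axes are equally long in log2 units but centred on their own probe set, and levels of different probe sets are not comparable. SDHD 202026_at lies at 12.56 to 12.63 in siEGFP and 10.26 to 10.99 in siPCARNEQ, while most other panels show groups close together and several show siPCARNEQ array 1 apart.

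SDHC, the other membrane anchor, gave values that depended on the probe set. The brightest, 210131_x_at, lay at 12.55, 12.46 and 12.48 in siEGFP and 12.25, 12.63 and 12.62 in siPCARNEQ. Its groups overlapped and the difference was 0.01 (SE 0.12), with siPCARNEQ array 1 below and arrays 2 and 3 above every control. Probe set 202004_x_at had the same pattern (0.01, SE 0.13), and 215088_s_at differed by 0.05 (SE 0.07). In the first 2 of these the spread within siPCARNEQ exceeded the difference between the groups.

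Probe set 238191_at of SDHC was higher in siPCARNEQ. It lay at 9.84, 9.68 and 9.71 in siEGFP and at 10.60, 10.46 and 10.36 in siPCARNEQ, with no overlap. The difference was 0.73 (SE 0.09), 1.66-fold, and nearly the same in array 1 (0.76) and arrays 2 and 3 (0.72). Probe set 238056_at was higher by 0.28 (SE 0.09) without overlap, by 0.06 in array 1 and 0.39 in arrays 2 and 3. Probe set 232107_at differed by 0.18 (SE 0.11) with overlap. Probe set 216591_s_at showed the widest spread between arrays of 1 group among the 17. It lay at 10.94 on siPCARNEQ array 1 against 12.21 and 12.20 on arrays 2 and 3, so its difference of -0.16 (SE 0.33) turned from -0.83 in array 1 to 0.17 in arrays 2 and 3. Without siPCARNEQ array 1 it was 0.26. The 7 SDHC probe sets therefore ranged from -0.16 to 0.73.

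CS, the entry enzyme, was slightly lower. It lay at 13.59, 13.51 and 13.53 in siEGFP and 13.34, 13.44 and 13.46 in siPCARNEQ (208660_at). The groups did not overlap, and the difference was -0.13 (SE 0.07), 91.5% of control. It was -0.25 in array 1 and -0.07 in arrays 2 and 3.

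IDH3A had probe sets that pointed in opposite directions. The brightest, 202069_s_at, lay at 11.39, 11.66 and 11.66 in siEGFP and 10.62, 11.38 and 11.39 in siPCARNEQ. The groups met at 11.39, and the difference was -0.44 (SE 0.21), from -0.77 in array 1 to -0.27 in arrays 2 and 3. Without siPCARNEQ array 1 it was -0.18. The second, 202070_s_at, lay at 9.68, 9.72 and 9.70 in siEGFP and 9.98, 9.87 and 9.88 in siPCARNEQ, higher by 0.21 (SE 0.07) with no overlap. The third, 231137_at, was below the array median in both groups and differed by -0.04 (SE 0.09).

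The malate dehydrogenases were nearly level in their brightest probe sets. MDH1 (200978_at) lay at 13.07, 13.15 and 13.20 in siEGFP and 12.81, 13.21 and 13.22 in siPCARNEQ, a difference of -0.06 (SE 0.12). MDH2 (209036_s_at) lay at 13.67, 13.71 and 13.72 in siEGFP and 13.46, 13.79 and 13.77 in siPCARNEQ, a difference of -0.02 (SE 0.10). In both, siPCARNEQ array 1 was the lowest array and arrays 2 and 3 were above every control. The dimmer MDH2 probe set 213333_at lay at 9.53, 9.56 and 9.51 in siEGFP and 9.91, 9.89 and 9.90 in siPCARNEQ. It was higher by 0.36 (SE 0.07), 1.29-fold, with no overlap and almost the same value in array 1 (0.38) and arrays 2 and 3 (0.35).

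**Figure D2:**
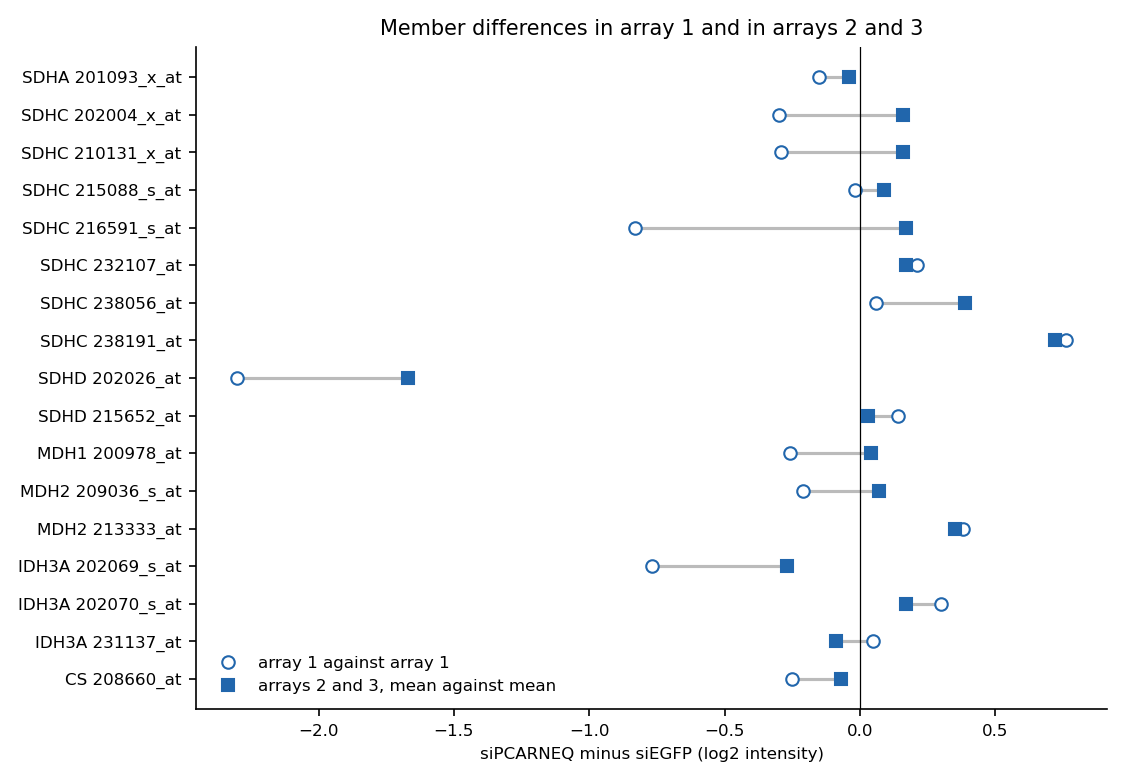
The horizontal axis gives the difference siPCARNEQ minus siEGFP in log2 intensity for each member probe set (rows), between the arrays numbered 1 (open circles) and between the means of arrays 2 and 3 (filled squares). SDHD 202026_at is far to the left in both (-2.30 and -1.67), and the SDHC, MDH1 and MDH2 probe sets with the lowest values on siPCARNEQ array 1 cross 0 between the array sets.

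Across the 17 member probe sets the median difference was 0.01, against -0.01 over all probe sets, and 11 differed by less than 0.2 in size. By array it was -0.15 in array 1 and 0.09 in arrays 2 and 3. Of the 17, 3 were past the call used for all probe sets (limma, Benjamini-Hochberg adjusted p below 0.05), which called 18.5% of them: SDHC 238191_at and MDH2 213333_at upward, where 9.92% of probe sets were called, and SDHD 202026_at downward, where 8.61% were. With arrays 2 and 3 alone 5 were called, and with arrays 2 and 3 of a group averaged as 1 replicate only SDHD 202026_at was. In 7 of the 17 the groups did not overlap, against 37.7% of all probe sets. Counting only the brightest probe set of each gene, SDHA, SDHD and CS did not overlap, 3 of 7 against 44% of all genes. Nothing is read from these counts, since the genes were chosen on this contrast. The 3 called probe sets were the brightest of their gene in 1 case, SDHD.

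By a rule on the array values alone, the 5 genes whose pattern over the 6 arrays was most like that of SDHD were PDZD8, RNF141, ENPP4, AMZ2 and H2BC11. Their root mean square distances from SDHD, after each gene was centred on its mean, were 0.0347, 0.0406, 0.0531, 0.0575 and 0.0737 log2 units, and their differences were -1.92, -1.91, -1.82, -1.85 and -1.92. H2BC11 is a histone gene of a near-identical family and lay below the array median in siPCARNEQ, so its value is uncertain.

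In RefSeq order along chromosome 11, SDHD lies 4 genes after DLAT, a subunit of pyruvate dehydrogenase, and next to TIMM8B, a mitochondrial import chaperone. Its 5 protein-coding neighbours on either side were examined after the SDHD value was seen, and 9 of the 10 were measured. Of these, 2 fell, 0 rose and 7 did not pass (limma, adjusted over all genes), where 12.3% of all genes fell and 15.2% rose. DLAT fell by 1.22 (SE 0.11, adjusted p = 0.000365). The brightest probe set of TIMM8B fell by 0.24 (SE 0.06, adjusted p = 0.0259) and its other one differed by -0.03, and the gene did not pass without array 2 or array 3 of either group (adjusted p = 0.086 to 0.0975). NKAPD1, between DLAT and TIMM8B, differed by 0.00 (SE 0.09) in its brightest probe set, but in the brightest of its probe sets without the _s_at, _x_at and _a_at suffixes it rose by 0.38 (adjusted p = 0.0342). IL18, on the far side of SDHD, differed by -0.06 (SE 0.08), below the array median in both groups.

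**Figure D3:**
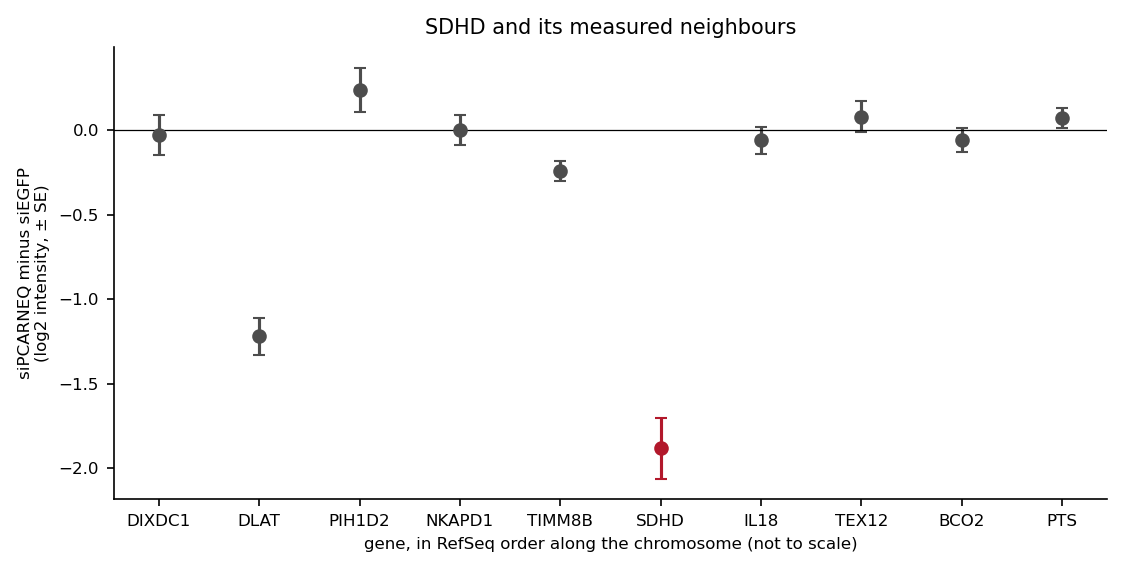
Points are the difference siPCARNEQ minus siEGFP in log2 intensity (vertical axis), with bars of ± 1 SE from the limma fit over genes, for SDHD (red) and its measured neighbours (grey) in RefSeq order, not to scale. SDHD and DLAT lie at -1.88 and -1.22, and the other neighbours lie between -0.24 and 0.24.

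The remaining genes of the pathway, which the choice of members did not use, were tested with limma over all 19775 genes, each represented by its brightest probe set. Of all genes, 27.5% changed, 15.2% upward and 12.3% downward. The lists were drawn from general knowledge, but earlier results of these data were known when they were chosen. Their counts and p-values are therefore not an independent test.

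In a list of other TCA cycle genes and their relatives, 5 of 12 measured rose, 3 fell and 4 did not pass. The median difference was 0.13 against -0.01 over all genes. Those that rose included NADP-dependent isocitrate dehydrogenases, IDH1 in the cytosol and IDH2 in mitochondria, and the cytosolic aconitase ACO1. IDH1 and ACO1 thus lie outside the matrix, where the cycle runs. IDH2 lay at 11.95, 11.95 and 11.96 in siEGFP and 12.40, 12.44 and 12.41 in siPCARNEQ, without overlap, and rose by 0.47 (SE 0.06, limma adjusted p = 0.00142). IDH1 rose by 0.41 (adjusted p = 0.00331), and ACO1 rose by 0.48 (adjusted p = 0.0019) in its brightest probe set. The other ACO1 probe set, below the array median and without a suffix, differed by 0.26 and did not pass (adjusted p = 0.0631 in the fit over such probe sets). OGDHL, a relative of the alpha-ketoglutarate dehydrogenase OGDH, rose by 1.11 (SE 0.19, adjusted p = 0.00505), from 8.12, 7.62 and 7.72 to 9.32, 8.72 and 8.75. IDH3G, a regulatory partner of IDH3A, rose by 0.23 (adjusted p = 0.0321).

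The 3 that fell were SUCLA2, SUCLG1 and DLST. The succinyl-CoA synthetase subunits SUCLA2 and SUCLG1 fell by 0.75 (SE 0.19, limma adjusted p = 0.022) and 0.32 (adjusted p = 0.0176), and DLST, the succinyltransferase of alpha-ketoglutarate dehydrogenase, fell by 0.27 (adjusted p = 0.0198). SUCLG2, IDH3B, DLD and OGDH did not pass, at 0.18, -0.13, 0.07 and -0.02 (adjusted p = 0.107, 0.248, 0.814 and 0.906). Without siPCARNEQ array 1, DLD rose by 0.30 (adjusted p = 0.0339). Each of these calls but those of IDH1, IDH2, ACO1 and OGDHL was lost when some single array was left out. SUCLA2 did not pass without siEGFP array 2 or 3 (adjusted p = 0.0783 and 0.0793), SUCLG1 without siPCARNEQ array 2 or 3 or siEGFP array 3 (0.0512 to 0.0615), DLST without array 2 or 3 of either group (0.0571 to 0.0896), and IDH3G without any 1 array other than siPCARNEQ array 1 (0.0612 to 0.123). The list count was 5 of 12 without siPCARNEQ array 2, siPCARNEQ array 3 or siEGFP array 2, and 4 without siEGFP array 3. SUCLG1 had a difference of -0.03 (adjusted p = 0.759) averaged over its probe sets.

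Of 4 assembly factors of succinate dehydrogenase, 1 fell, 0 rose and 3 did not pass, with a list median of -0.06 against -0.01 over all genes. SDHAF3, which acts in maturation of the complex, lay at 10.83, 11.01 and 10.92 in siEGFP and 9.81, 10.17 and 9.81 in siPCARNEQ, with no overlap. It fell by 0.99 (SE 0.12, limma adjusted p = 0.000885) and passed without any 1 array. SDHAF1, SDHAF4 and SDHAF2 differed by -0.21, 0.09 and 0.12 (adjusted p = 0.0577, 0.371 and 0.423). Without siPCARNEQ array 1, SDHAF1 passed too (-0.24, adjusted p = 0.0236).

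At the entry of pyruvate, 1 of 12 genes rose, 2 fell and 9 did not pass, with a median difference of -0.05 against -0.01 over all genes. DLAT, the acetyltransferase of pyruvate dehydrogenase, lay at 12.26, 12.48 and 12.40 in siEGFP and 10.93, 11.30 and 11.24 in siPCARNEQ. It has 2 further probe sets, of which 1 fell by 1.38 and 1 fell by 2.22, so all 3 fell. PDHB, a subunit of the same complex, fell by 0.35 (limma adjusted p = 0.00921). PDK3, a kinase that inactivates the complex, rose by 1.36 (SE 0.17, adjusted p = 0.00106), and its other 4 probe sets rose as well. PDK2, PDK1 and MPC1 did not pass, at 0.23, -0.56 and 0.17 (adjusted p = 0.0879, 0.118 and 0.201). PDK2 rose by 0.42 over the mean of its probe sets (adjusted p = 0.00725). Blocking on the replicate number gave 1 gene that rose and 4 that fell, PDK1 among them (adjusted p = 0.00313). Without siPCARNEQ array 1, 3 rose and 3 fell, with PDK2 (0.29, adjusted p = 0.0277) and PDK1 (-0.79, adjusted p = 0.0171) among them.

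**Figure D4:**
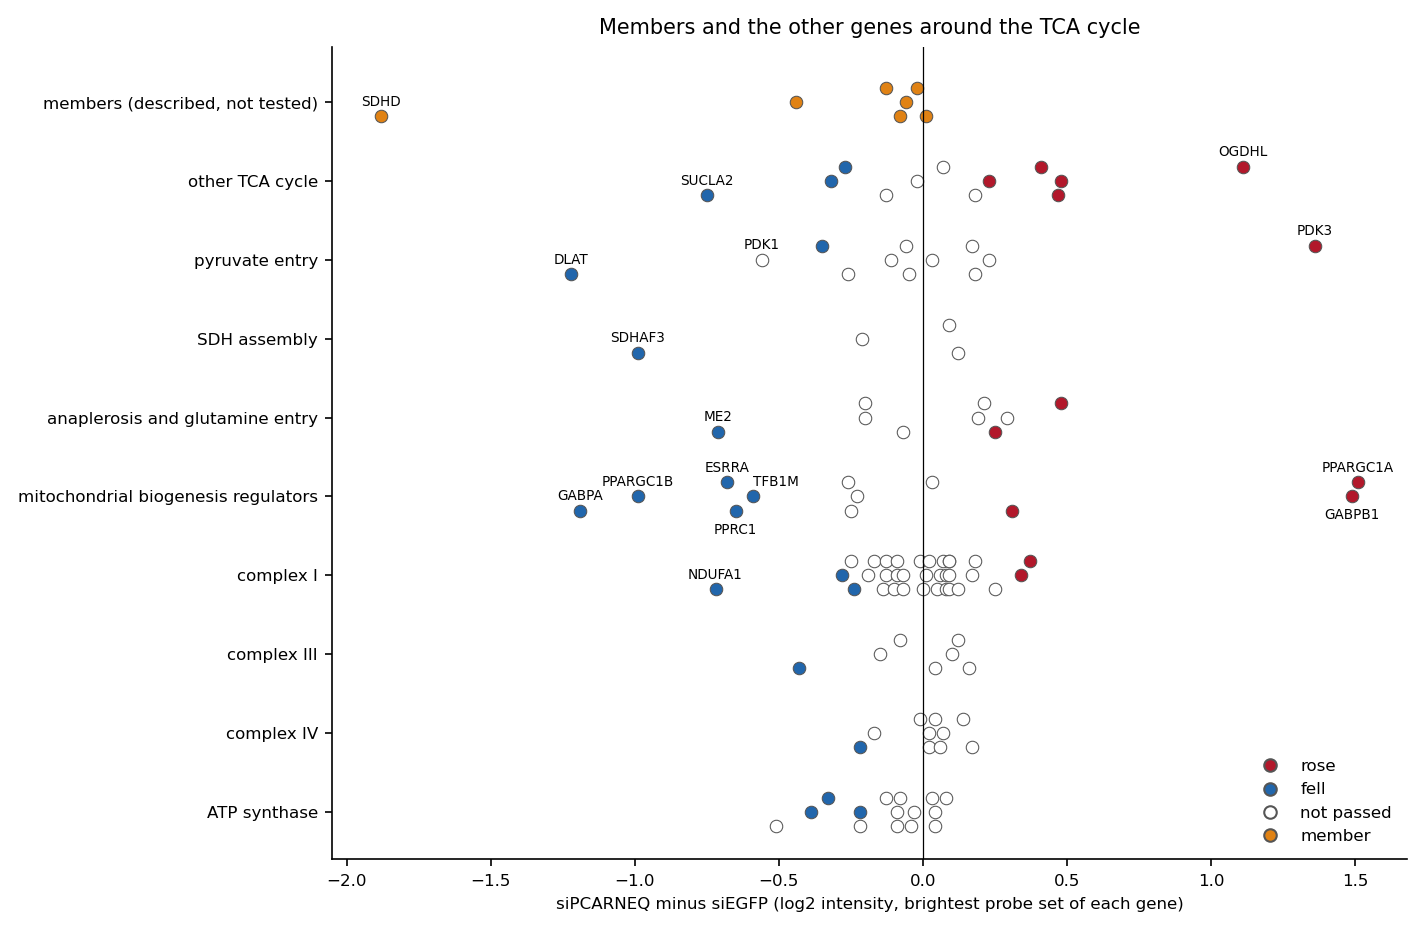
Each point is 1 gene at its difference siPCARNEQ minus siEGFP in log2 intensity (horizontal axis, brightest probe set), in rows by list; red and blue points rose or fell with limma, white points did not pass, and orange points are the 7 described members. SDHD lies at -1.88 and the other 6 members between -0.44 and 0.01, and most respiratory chain points lie close to 0.

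Genes of enzymes that add carbon to the cycle or draw it off, listed as anaplerosis, moved in both directions. Of 9 measured, 2 rose, 1 fell and 6 did not pass, with a median difference of 0.19 against -0.01 over all genes. ME2, the mitochondrial malic enzyme, fell by 0.71 (SE 0.08, limma adjusted p = 0.000697), as did its other 2 probe sets. GLUD1, glutamate dehydrogenase, rose by 0.48 (adjusted p = 0.0459), and ME3 rose by 0.25 (adjusted p = 0.0347) at a level below the array median. Without siPCARNEQ array 3 or any 1 siEGFP array, ME2 was the 1 gene that passed. GLUD1 then had adjusted p = 0.0534 to 0.152, and ME3 had 0.0623 to 0.136, also not passing without siPCARNEQ array 2. Without siPCARNEQ array 1, 3 rose and 2 fell. GOT2, ME1 and GOT1 did not pass, at 0.29, -0.20 and -0.20 (adjusted p = 0.052, 0.0532 and 0.0567). Blocking on the replicate number brought GOT2 to an adjusted p of 0.028.

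Of 65 measured subunits of respiratory complexes I, III and IV and of ATP synthase, 2 rose, 8 fell and 55 did not pass, with a median difference of 0.00 against -0.01 over all genes. In complex I 2 of 33 rose and 3 fell, and 1 of 7 in complex III, 1 of 10 in complex IV and 3 of 15 in ATP synthase fell. NDUFA1 fell by 0.72 (SE 0.08, limma adjusted p = 0.000749), CYC1, cytochrome c1, by 0.43 (adjusted p = 0.00299), and ATP5MC1 and ATP5PO by 0.39 and 0.33 (adjusted p = 0.00385 and 0.00905). These 4 passed without any 1 array, but over the mean of its probe sets ATP5PO differed by -0.16 and did not pass (adjusted p = 0.0789). NDUFA5 and NDUFA2 rose by 0.37 and 0.34 (adjusted p = 0.0137 and 0.0228). NDUFA5 was lost without siPCARNEQ array 2 or siEGFP array 3 (0.0505 and 0.0627), and NDUFA2 did not without siPCARNEQ array 3, siEGFP array 2 or siEGFP array 3 (0.0598 to 0.0944). NDUFB10, NDUFS6, COX6A1 and ATP5PF fell by 0.24, 0.28, 0.22 and 0.22 (adjusted p = 0.0419, 0.0426, 0.0458 and 0.0363), and did not pass without any 1 array other than siPCARNEQ array 1 (0.0744 to 0.142). The count was 5 without siPCARNEQ array 2, siPCARNEQ array 3 or siEGFP array 2, 6 without siEGFP array 1, and 4 without siEGFP array 3.

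Of 12 regulators of mitochondrial genes, 3 rose, 5 fell and 4 did not pass, with a median difference of -0.25 against -0.01 over all genes. Both subunits of GABP changed, in opposite directions. The ETS core that GABP binds is in the SDHD, MDH2 and CS promoters shown above, and the brightest probe sets of these genes differed by -1.88, -0.02 and -0.13. The same window of DLAT, which fell, held none of the motifs searched. A link between GABP and these genes was not tested. GABPA, the DNA-binding subunit, lay at 9.04, 9.16 and 9.26 in siEGFP and 7.33, 8.39 and 8.16 in siPCARNEQ and fell by 1.19 (SE 0.25, limma adjusted p = 0.0112), with its second probe set at -1.66. GABPB1, its partner, lay at 10.24, 10.14 and 10.18 in siEGFP and 11.67, 11.68 and 11.68 in siPCARNEQ and rose by 1.49 (SE 0.06, adjusted p = 2.93e-05). The coactivator PPARGC1A rose by 1.51 (SE 0.31, adjusted p = 0.0108), but both groups lay below the array median, and its second probe set differed by -0.04. Its relatives PPARGC1B and PPRC1 fell by 0.99 and 0.65, the receptor ESRRA by 0.68 and the mitochondrial rRNA methyltransferase TFB1M by 0.59 (adjusted p = 0.00115, 0.00163, 0.00198 and 0.000875). For TFB1M the brightest probe set without a suffix differed by -0.26 and did not pass (adjusted p = 0.199). HIF1A, the hypoxia factor, rose by 0.31 (adjusted p = 0.011). TFAM, NRF1 and TFB2M did not pass, at -0.23, -0.26 and -0.25 (adjusted p = 0.0607, 0.0881 and 0.306). Blocking on the replicate number brought TFAM and NRF1 past the threshold (adjusted p = 0.0426 and 0.0305). Over the mean of their probe sets TFAM fell by 0.64 and NRF1 by 0.32 (limma adjusted p = 0.000443 and 0.00647). TFAM fell by 1.27 (adjusted p = 0.00869) in the brightest of its probe sets that lack the _s_at, _x_at and _a_at suffixes.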

How the data were processed

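Each deposited value is a linear intensity of 1 probe set. RMA, which corrects background, quantile-normalizes and summarises probes, is named in the submitters' processing notes, and the sources used here give neither its version nor its probe file. Biotin-labelled cRNA was made from 6 ug of total RNA, per the labels. The arrays share 1 distribution (median intensity 130.8 on each), so differences in total RNA are out of reach, and the number of arrays limits the precision. Of 54675 probe sets, 62 controls were left out. GEO's platform annotation pairs 41091 of the rest with 1 gene, 1801 with several and 11721 with none listed, and 41037 matched RefSeq by gene ID. Log2 was taken with no pseudocount.

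The 6 arrays were fitted in R 4.3.3 with limma 3.58.1 (lmFit, then eBayes). P-values were 2-sided, adjusted by Benjamini-Hochberg across 54613 probe sets, or across 19775 genes by their brightest single-gene probe set, and called below 0.05. The fit was tested on simulated data. Tables and figures were made with Python 3.11.15 and matplotlib 3.10.9. The members and lists were chosen with earlier results of these data known. Genes were named by rule: all members, the passing genes of each short list with up to 3 that did not pass, up to 3 passing genes in each direction per respiratory complex, and the 5 genes most like the member with the largest difference. SDHD neighbours were added after values were seen. Genes that the annotation pairs with no probe set of their own were not analysed here.

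Deviations of arrays with the same replicate number from their group means correlated at 0.47, 0.30 and 0.34. All were above 0.1, so the numbers were tried as a block. These values cannot show a pairing of arrays 2 and 3 by number. Array 1 stood apart in both groups, and deviations from a group mean then tie those of arrays 2 and 3 to array 1. Correlations between arrays with different numbers were not examined. The labels do not state such a pairing. The main model left this block out. Alternatives were that block, a filter at the median level, further quantile normalization, eBayes with trend, leaving out each array, arrays 2 and 3 alone or averaged, the mean of a gene's probe sets, and probe sets without the _s_at, _x_at and _a_at suffixes.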

Additional observations from a re-analysis of the deposited data

How the results depend on the processing

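Values were recomputed under each alternative. SDHD 202026_at kept its direction under every one run. Counts of calls that moved by over 1.5 times were as follows. With arrays 2 and 3 alone, 5 member probe sets, 17104 of all probe sets, 8229 of all genes, 7 pyruvate entry, 2 assembly, 7 anaplerosis and 21 respiratory genes were called. With arrays 2 and 3 averaged as 1 replicate these were 1 member probe set, 2264 probe sets, 2236 genes, 3 other TCA, 1 anaplerosis and 1 respiratory gene. The mean of all probe sets of a gene gave 6 pyruvate entry, 2 assembly and 6 anaplerosis genes. Without probe sets below the median level, 2 assembly and 5 anaplerosis genes were called, and eBayes with trend gave 6 anaplerosis genes. Probe sets without the _s_at, _x_at and _a_at suffixes gave 3 other TCA genes, among 7 tested, and NDUFA2 turned to -0.15 there (adjusted p = 0.338). The replicate number as a block gave 5 pyruvate entry genes. Among genes named here it also brought 4 to a call, PDK1, GOT2, TFAM and NRF1, and ended none. Further quantile normalization moved no count past 1.5 times. Beyond the smaller sets tested, the cause of these moves was not tested.

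With each array left out in turn, counts ran from 2 to 4 for member probe sets, 5829 to 13232 for all probe sets, 3701 to 6303 for all genes, 4 to 9 for other TCA, 3 to 6 for pyruvate entry, 1 to 2 for assembly, 1 to 5 for anaplerosis, 8 to 9 for regulators and 4 to 14 for respiratory genes. Of 39 named genes that passed, 26 passed without any 1 array, but of those IDH1, PDHB, HIF1A, GABPA, CYC1, ATP5MC1 and ATP5PO were no longer called once arrays 2 and 3 were averaged (adjusted p = 0.0535 to 0.144). Levels below the array median of 7.03 were not shown to be above background, which limits SDHD 215652_at, IDH3A 231137_at, ME3 and PPARGC1A.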
